A study of Mus musculus with 36 samples.

Results

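The genes described here encode complement components, regulators and receptors. The set holds 30 genes taken by symbol, by a rule that uses no measured value, out of 49315 genes listed. The list of symbols was drawn up with earlier results of these data known. All 30 are among the 16638 genes that reached at least 1 TPM (transcript abundance corrected for gene length and scaled to the same total in every library) in at least 4 livers and were tested. By the cell that mainly makes them in liver, 21 are hepatocyte-made plasma proteins: 8 of the classical and lectin pathways (C1ra, C1s1, C2, C4b, Mbl1, Mbl2, Masp1, Masp2), C3 and Cfb, 6 of the terminal pathway (Hc, C6, C8a, C8b, C8g, C9) and 5 soluble regulators (Cfi, Cfhr2, C4bp, Serping1, Clu). Cfd, the protease factor D, stands alone, Cd55 and Cd59a are 2 membrane regulators, and 6 genes are chiefly of macrophages and other myeloid cells (C1qa, C1qb, C1qc, Cfp, C3ar1, C5ar1).

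PolyA RNA was sequenced from the livers of 36 male mice of 11 to 12 weeks, 4 in each of 9 groups. The gene edited was that of LXRalpha, the liver X receptor alpha that oxysterols activate, which carried tryptophan (W) or, after CRISPR editing, phenylalanine (F) at residue 441: W/W controls, W/F heterozygotes and F/F homozygotes. Every genotype had a chow group, a vehicle group and a T0901317 group. Vehicle and T0901317 mice ate a high-fat, high-cholesterol diet for 4 weeks to bring on steatohepatitis (the MASH diet, for metabolic dysfunction-associated steatohepatitis). Over its last 2 weeks they received, by gavage each day, either vehicle or 10 mg/kg of T0901317, a synthetic agonist of both LXR forms. The chow mice were a separate cohort with no gavage named, so diet, gavage and cohort cannot be told apart. The labels pair the name LXRalpha with the symbol Nr1h2, which is the mouse symbol of LXRbeta. A change of 1 residue leaves no mark on a TPM value, so the genotypes were not checked against these data.

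Complement is a cascade of plasma proteases and binding proteins made mostly by hepatocytes. Antibody-bound C1q, mannose-binding lectins with their MASP proteases, or spontaneous activation of C3 lead to C3 cleavage, and C5 to C9 then assemble the membrane attack complex. Factor D cleaves factor B in the alternative pathway and is best known as a product of adipocytes (adipsin), while C1q is made chiefly by macrophages and dendritic cells, and the receptors C3ar1 and C5ar1 read the small fragments C3a and C5a on myeloid cells.

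Upstream sequence is shown for the 5 genes on which the results below turn, as the 250 bases before the RefSeq start of transcription in GRCm38.p6, 5′ to 3′ on the gene's strand. Cfd and Mbl2 had the largest group differences outside the macrophage-made genes, C8b and C8a are neighbours that moved apart, and C1qc stands for the C1q cluster. The windows are chr10:79890603-79890852 (plus strand) for Cfd, chr4:104766067-104766316 (plus) for C8b, chr4:104876399-104876648 (minus) for C8a, chr19:30232678-30232927 (plus) for Mbl2 and chr4:136892915-136893164 (minus) for C1qc.
Cfd: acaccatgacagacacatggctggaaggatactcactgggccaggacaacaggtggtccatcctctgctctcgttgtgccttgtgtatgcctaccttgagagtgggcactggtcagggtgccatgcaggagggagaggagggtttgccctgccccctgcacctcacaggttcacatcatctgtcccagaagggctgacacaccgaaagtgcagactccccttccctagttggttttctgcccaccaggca
C8b: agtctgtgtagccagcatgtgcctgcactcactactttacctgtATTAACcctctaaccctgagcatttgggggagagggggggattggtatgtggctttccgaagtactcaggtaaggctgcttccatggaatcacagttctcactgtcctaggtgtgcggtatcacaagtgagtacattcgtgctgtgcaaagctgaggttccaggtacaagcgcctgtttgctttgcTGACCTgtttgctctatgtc
C8a: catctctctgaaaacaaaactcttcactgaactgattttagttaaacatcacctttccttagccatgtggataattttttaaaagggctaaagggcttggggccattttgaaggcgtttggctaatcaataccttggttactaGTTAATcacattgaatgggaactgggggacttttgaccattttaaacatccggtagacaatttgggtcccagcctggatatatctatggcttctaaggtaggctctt
Mbl2: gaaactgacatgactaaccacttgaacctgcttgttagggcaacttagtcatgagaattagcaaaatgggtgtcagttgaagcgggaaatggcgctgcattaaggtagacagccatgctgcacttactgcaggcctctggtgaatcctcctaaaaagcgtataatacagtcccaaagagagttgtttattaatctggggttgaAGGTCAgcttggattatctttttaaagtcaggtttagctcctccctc
C1qc: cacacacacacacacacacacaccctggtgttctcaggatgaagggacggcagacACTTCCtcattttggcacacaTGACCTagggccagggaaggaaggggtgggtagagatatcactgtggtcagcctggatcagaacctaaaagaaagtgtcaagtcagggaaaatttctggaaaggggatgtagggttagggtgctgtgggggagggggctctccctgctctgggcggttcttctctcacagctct
Capitals mark matches, on either strand, to 3 motifs: AGGTCA, the half-site that LXR and many other nuclear receptors bind, GTTAAT, a half-site of the hepatocyte factor HNF1, and GGAAGT, an ETS core of the kind PU.1 binds in myeloid cells. C8b holds the nuclear receptor half-site 20 bases before the start and the HNF1 half-site 206 bases before it. The HNF1 half-site stands 107 bases before the start of C8a, and the nuclear receptor half-site 47 bases before that of Mbl2. C1qc holds the nuclear receptor half-site at 174 and the ETS core at 195 bases before the start, and Cfd holds none of the 3. Of 22 members with a window, 5 hold AGGTCA (C1qc, C3, C6, C8b, Mbl2), 7 hold GTTAAT (C1ra, C4bp, C8a, C8b, Cfhr2, Cfp, Hc) and 4 hold GGAAGT (C1qb, C1qc, C5ar1, Masp2). Over 32851 promoter windows of that length the shares were 14%, 6.43% and 19.7%. A direct repeat of the half-site with a 4-base gap, the arrangement known for LXR, was in 0.0152% of windows and in no member's. These matches describe letters and not bound sites. C1qa, C2, C4b, Cfb, Cfi, Clu, Masp1 and Serping1 had no window.

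The depth recovered from the deposited values was 18.04 to 35.7 M reads per library (M, 1000000), with a median of 23.8 M. Hepatocyte markers (7 genes) were present in every library, and their summed levels are given with the terminal genes. TPM sums to a constant in each library, and the median of all tested genes moved between groups: in W/F vehicle mice it lay 0.52 and in F/F vehicle mice 0.70 above W/W vehicle on the log2 scale. Each comparison was therefore also made after rescaling, in which every library was divided by its median ratio to a common reference over 14786 genes. A gene was called at an adjusted p under 0.05 in limma over all tested genes, and folds are fitted differences of log2(TPM + 1), which understate changes of low genes. Replicates are separate mice, and in RNA from whole liver fewer cells of a type and less RNA per cell cannot be told apart. In W/F with T0901317, replicate 2 stood apart from the other 3 mice in all 6 macrophage-made genes, as described with them.

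The diet was followed by a fall of the terminal pathway in W/F and F/F livers, a rise of the macrophage-made genes in both, and a rise of Cfd that was called in W/W alone among the genotypes. Of the 7 hepatocyte markers, 2 were called lower and 0 higher on the diet in W/F and 4 and 0 in F/F, and after rescaling all 7 were lower in both (median log2 difference -0.74 and -1.13). In W/W, 1 of the 30 genes was higher and 7 were lower on the MASH diet with vehicle than on chow, where 2.59% and 10.3% of all tested genes were; rescaled, 3 and 4 against 6.98% and 8.44%. The count of 8 rests in part on single mice: it was 3 without W/W vehicle replicate 1 and 4 without W/W chow replicate 2, while without W/W chow replicate 1 it was 11. A fit of these 2 groups alone, which has fewer samples, called 4. In W/F, 11 were higher and 9 lower, against 52.4% and 8.53% of all genes, and rescaled 7 and 16 against 27.9% and 27%. In F/F, 8 were higher and 13 lower, against 46.5% and 9.27%, and rescaled 8 and 16 against 25.7% and 21.3%. Among the 30, lower calls in F/F outnumbered higher ones, while over all genes higher calls were the more frequent. For the difference between genotypes in the diet effect, 14 members were higher and 4 lower in W/F than W/W (49.5% and 5.13% of all genes), and rescaled 8 and 11 (21% and 19.1%). In F/F these were 11 and 8 (41.5% and 4.54%), and rescaled 5 and 13 (14.5% and 12.3%).

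In W/W livers T0901317 lowered 5 terminal pathway genes and 3 soluble regulators and raised none of the 30 by the test. In W/W, 0 members were higher and 8 lower on T0901317 than on vehicle by limma (unadjusted p under 0.05: 1 and 12), where 7.87% of all genes were higher and 2.91% lower. Rescaled, the counts were 0 and 11, against 8% and 5.52%. The count of 8 rests in part on single mice: without W/W T0901317 replicate 4 it was 4, and without replicate 2 it was 5. In W/F, 5 were higher and 15 lower, against 6.59% and 59.3% of all genes, and rescaled 11 and 9 against 23.6% and 27.1%. In F/F, 5 were higher and 3 lower, against 3.95% and 31.2%, and rescaled 8 and 2 against 8.32% and 7.98%. Tested as a difference of responses, 8 members responded more upward and 13 more downward in W/F than in W/W (5.27% and 53.2% of all genes), and rescaled 14 and 6 (19.9% and 24%). In F/F these were 8 and 3 (3.29% and 27.2%), and rescaled 14 and 2 (7.39% and 10%).

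Between genotypes, chow W/F livers did not differ from W/W in any member by the test, whereas F/F livers did in every treatment. On chow, 0 members were higher and 0 lower in W/F than W/W by limma, and also 0 and 0 at an unadjusted p under 0.05, where 0.198% and 0.288% of all genes were called. Rescaled, the counts were again 0 and 0, against 0.192% and 0.409%. On vehicle the W/F counts were 17 higher and 5 lower (61.6% and 6.83% of all genes), and rescaled 9 and 13 (27.6% and 25.5%). On T0901317 they were 6 and 0 (3.65% and 6.23%), and rescaled 7 and 0 (5.08% and 8.28%); without W/F T0901317 replicate 1 the count of 6 was 10. For F/F against W/W the counts on chow were 9 and 3 (43% and 3.65%), and rescaled 6 and 10 (15.9% and 14%). On vehicle they were 15 and 9 (69.3% and 7.13%), and rescaled 7 and 18 (31% and 28.1%). On T0901317 they were 18 and 5 (56.3% and 6.96%), and rescaled 10 and 10 (24.2% and 22.7%). After rescaling, lower calls in vehicle F/F mice covered 18 of the 30.

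F/F and W/F livers were also compared with each other. On chow 8 members were higher and 2 lower in F/F (37.9% and 3.43% of all genes), and rescaled 6 and 8 (16.5% and 14.7%). On vehicle 2 were higher and 8 lower (19% and 2.3%), and rescaled 0 and 12 (5.74% and 4.85%). On T0901317 12 were higher and 6 lower (58.5% and 4.08%), and rescaled 6 and 13 (21.5% and 18.9%).

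**Figure D1:**
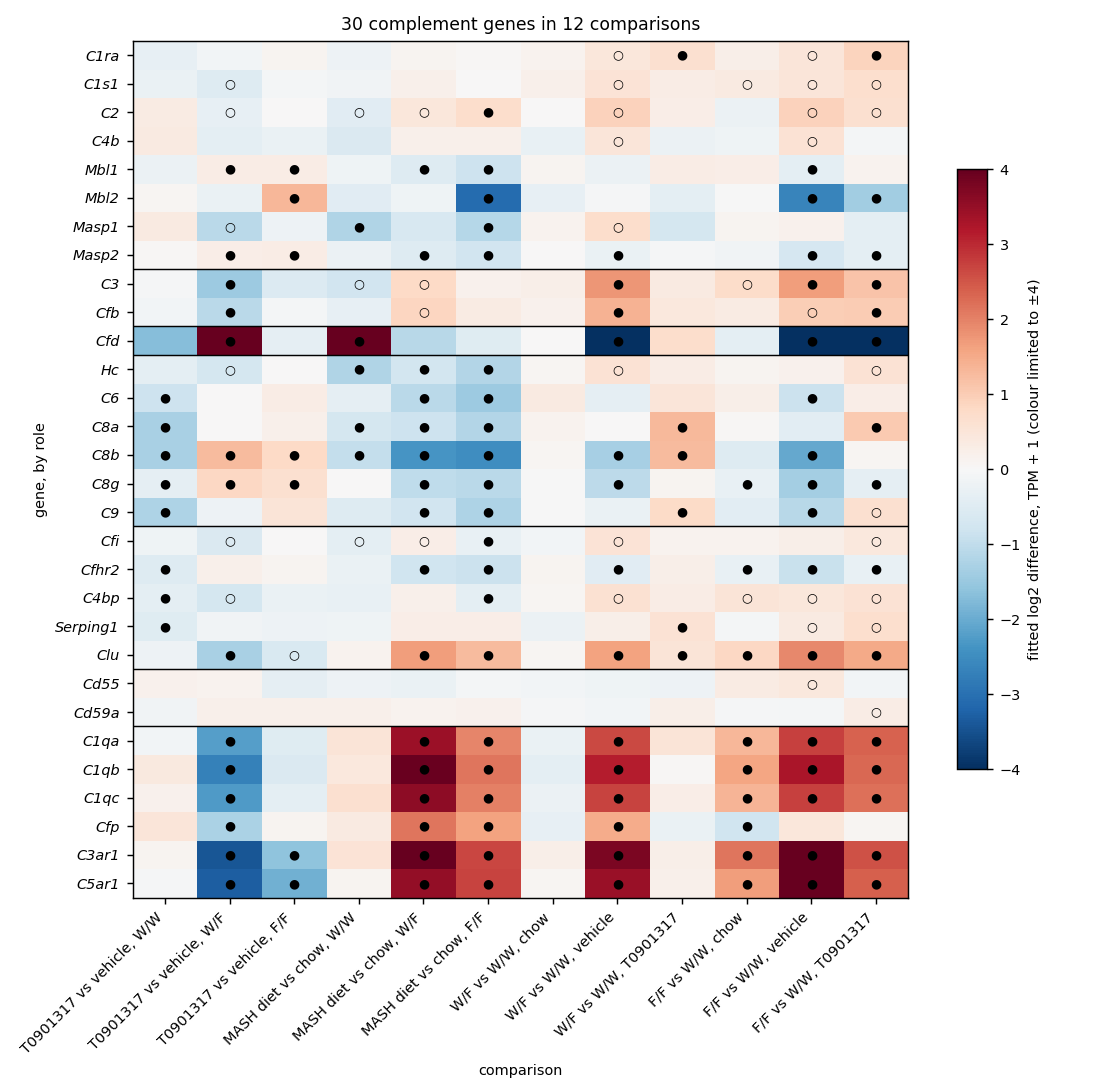
Fitted log2 differences of the 30 genes (y axis, ordered and ruled off by role) in 12 comparisons (x axis), with colour limited to 4 in either direction. Filled circles mark genes called in the same direction as deposited and after rescaling. Open circles mark genes called as deposited that after rescaling were either not called or called in the opposite direction. The terminal pathway is blue in all 3 diet columns except C8g in W/W, and the macrophage-made genes are red in the W/F and F/F diet columns.

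Cfd, which encodes factor D, had the widest spread of group means of the 30, from 1.004 TPM in F/F mice on T0901317 to 292 TPM in W/W vehicle mice. On chow its level in the 4 W/W mice was 11.8, 0.286, 2.82 and 6.15 TPM. On the MASH diet with vehicle it was 369, 303, 390.0000 and 107 TPM, and with T0901317 73.9, 55.7, 85.8 and 116 TPM. Every W/W mouse on the MASH diet therefore lay above every chow mouse. In W/F mice the level was 1.17, 12.1, 4.39 and 2.02 TPM on chow, 1.41, 0.510, 1.13 and 1.78 TPM on vehicle and 193, 57.97, 115 and 219 TPM with T0901317. In W/F the T0901317 mice were high, and the vehicle mice overlapped with the low end of the chow mice. In F/F mice the level was 3.30, 2.38, 2.52 and 1.998 TPM on chow, 0.370, 0.873, 6.80 and 1.01 TPM on vehicle and 1.11, 0.531, 0.982 and 1.40 TPM with T0901317. All F/F mice were low whatever the treatment. The 36 livers thus fell into 12 mice of 3 groups at 55.7 to 390.0 TPM and 24 mice of 6 groups at 0.286 to 12.1 TPM, with no mouse between.

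The diet effect on Cfd in W/W was 5.83 ± 0.57 (SE, adjusted p = 2.04e-08), and without W/W chow replicate 2, at 0.286 TPM, it was 5.22. On vehicle the difference of W/F from W/W was -6.93 ± 0.57 (SE, adjusted p = 1.54e-11) and that of F/F from W/W -6.70 ± 0.57 (SE, adjusted p = 9.14e-12). T0901317 raised Cfd in W/F by 5.92 ± 0.57 (SE, adjusted p = 6.98e-10). In W/W the T0901317 and vehicle groups differed by -1.70 ± 0.57 (SE, adjusted p = 0.0514), which missed the threshold as deposited and passed it after rescaling (-1.77, adjusted p = 0.0419); 1 vehicle mouse, at 107 TPM, lay within the T0901317 range. In F/F the difference was -0.35 ± 0.57 (SE, adjusted p = 0.658). The response to T0901317 differed between W/F and W/W by 7.62 ± 0.80 (SE, adjusted p = 8.81e-09) and between F/F and W/W by 1.35 ± 0.80 (SE, adjusted p = 0.204). On T0901317 W/F and W/W mice differed by 0.69 ± 0.57 (SE, adjusted p = 0.538), while F/F and W/W mice differed by -5.36 ± 0.57 (SE, adjusted p = 5.65e-09). Both scalings gave the same calls except for T0901317 in W/W and for the diet in W/F (-1.11, adjusted p = 0.0924; rescaled -1.39, adjusted p = 0.0453).

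Adipocyte markers were near 0 throughout. Adipoq, Lep, Retn and Plin1 summed to at most 0.756 TPM in any library, and Lep was listed at 0 in all. In W/W vehicle mice, where Cfd was highest, they summed to 0.0729 to 0.154 TPM, and in W/F T0901317 mice all 4 were listed at 0. The library with 0.756 TPM was F/F vehicle replicate 3, which also had the highest Cfd of its group at 6.80 TPM. The 5 tested genes whose log2 level across the 36 libraries was most like that of Cfd were Hsd17b10 (Pearson's r 0.898), Clstn3 (0.883), the pseudogene Cyp2c53-ps (0.869), Sema5b (0.846) and Sugct (0.838). The libraries share group and treatment, so these values describe likeness only. Hsd17b10, a mitochondrial dehydrogenase, had 236 ± 36.5, 431 ± 50.9 and 358 ± 42.9 TPM (n = 4 each, SD) in W/W on chow, vehicle and T0901317.

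C4a, the sex-limited copy of complement C4 and not one of the 30, was chosen after its values were seen because it shares part of the Cfd pattern. Its level was 40.6, 44.9, 15.8 and 46.4 TPM in W/W vehicle mice, 5.01, 3.13, 2.98 and 4.57 TPM in W/F vehicle mice and 2.93, 4.06, 2.32 and 1.80 TPM in F/F vehicle mice. The W/W mice did not overlap with the other 2 groups. T0901317 raised C4a in W/F, to 14.7, 7.27, 65.3 and 29.8 TPM (2.23 ± 0.44 (SE, adjusted p = 5.89e-05)). In F/F mice it stayed between 1.56 and 5.47 TPM in all 3 treatments, and T0901317 against vehicle there gave -0.02 ± 0.44 (SE, adjusted p = 0.982). Unlike Cfd, C4a was already present on chow in W/W and W/F (18.3 ± 8.47 and 16.9 ± 8.52 TPM, n = 4 each, SD), and its diet effect in W/W was 0.98 ± 0.44 (SE, adjusted p = 0.150). C4b, the C4 of plasma and a member, shares 34.6% of its 50-base stretches with other genes, chiefly C4a, so the counting may have left out or divided reads of both. C4b lay between 489.8 and 741 TPM in the means of all 9 groups and was not called in both scalings in any comparison.

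**Figure D2:**
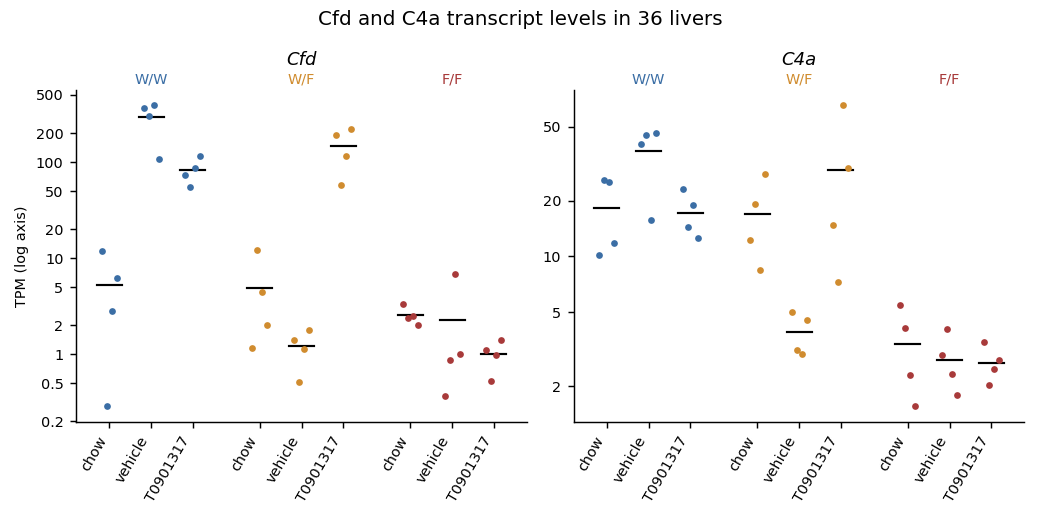
Cfd and C4a in TPM on log axes (y) in the 9 groups (x, by genotype and treatment), with 1 point per mouse and a bar at the group mean. The W/W vehicle, W/W T0901317 and W/F T0901317 mice lie at 55.7 to 390.0 TPM for Cfd and all other mice at 0.286 to 12.1 TPM.

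The terminal pathway genes, which build the membrane attack complex, fell on the MASH diet in W/F and F/F and fell on T0901317 in W/W. All 6 were called lower on the diet in W/F and F/F under both scalings (median log2 difference -0.93 and -1.20, beside 0.39 and 0.32 for all genes), and 3 in W/W (-0.61, beside -0.05). Of all genes, 8.53%, 9.27% and 10.3% were called lower in W/F, F/F and W/W, and rescaled 27%, 21.3% and 8.44%. On T0901317, 5 of 6 were lower in W/W under both scalings (median -1.03, beside 0.06 for all genes), where 2.91% of all genes were lower (rescaled 5.52%). In W/F 2 were higher and 1 lower as deposited (6.59% and 59.3% of all genes), and 3 and 0 after rescaling (23.6% and 27.1%). In F/F 2 were higher and 0 lower by limma as deposited (unadjusted p under 0.05: 3 and 0), and 3 and 0 after rescaling. The shares of all genes there were 3.95% and 31.2%, and rescaled 8.32% and 7.98%. The hepatocyte markers moved in part with these genes. Their summed level was 61825 to 83094 TPM in F/F on chow, 33372 to 36402 on vehicle and 48992 to 64435 with T0901317, and 52849 to 86785, 55333 to 63647 and 46687 to 69197 TPM in W/F. In W/W it was 63042 to 99366, 63711 to 85112 and 69401 to 79638 TPM. On T0901317, 1 of the 7 markers was lower in W/W under both scalings, and in F/F 5 were higher and 0 lower as deposited. In W/F 3 markers were higher and 1 lower as deposited, and 5 and 0 after rescaling (median log2 difference 0.09 and 0.70). The part that the hepatocyte share plays in the terminal genes was not tested.

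C8b, the beta chain of C8, which docks onto the growing complex, had the largest diet differences of the 6 in W/F and F/F, while in W/W that of Hc was larger. Its level in W/W mice was 377, 578, 563 and 361 TPM on chow, 254, 229, 186 and 287 TPM on vehicle and 120.4, 53.2, 125 and 99.4 TPM with T0901317. The 3 W/W groups did not overlap. In W/F mice C8b was 545, 442, 379 and 599 TPM on chow, 113, 93.7, 86.8 and 82.7 TPM on vehicle and 145, 218, 268 and 314 TPM with T0901317. In F/F mice it was 461, 385, 249 and 242 TPM on chow, 59.2, 70.2, 50.5 and 50.2 TPM on vehicle and 98.5, 113, 92.2 and 99.6 TPM with T0901317. In both mutant genotypes the vehicle group was lowest, and every T0901317 mouse lay above every vehicle mouse, the opposite order to W/W. T0901317 against vehicle gave -1.31 ± 0.24 (SE, adjusted p = 0.000312) in W/W, 1.27 ± 0.24 (SE, adjusted p = 3.45e-05) in W/F livers and 0.81 ± 0.24 (SE, adjusted p = 0.0111) in F/F. The response differed from that of W/W by 2.58 ± 0.34 (SE, adjusted p = 3.33e-07) in W/F livers and 2.12 ± 0.34 (SE, adjusted p = 4.65e-05) in F/F. The diet effect was -0.96 ± 0.24 (SE, adjusted p = 0.00812) in W/W, -2.36 ± 0.24 (SE, adjusted p = 1.07e-09) in W/F livers and -2.48 ± 0.24 (SE, adjusted p = 1.44e-09) in F/F. On vehicle F/F mice differed from W/W by -2.03 ± 0.24 (SE, adjusted p = 8.34e-09) and from W/F by -0.70 ± 0.24 (SE, adjusted p = 0.0359). Each of these calls was the same after rescaling.

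C8a, the alpha chain of C8, lies 11130 bases from C8b on chr4 and on the other strand. It shared the fall on T0901317 in W/W, from 298, 405, 349.9 and 415 TPM to 136, 122, 178 and 166 TPM, without overlap (-1.29 ± 0.20 (SE, adjusted p = 2.44e-05)). It did not share the rise in W/F, where the levels were 416, 331, 378 and 353 TPM on vehicle and 258, 361, 463 and 429 TPM with T0901317 (0.01 ± 0.20 (SE, adjusted p = 0.987)), a difference called only after rescaling (0.61, adjusted p = 0.0106). The level of C8b relative to C8a was 0.778 ± 0.0733, 0.660 ± 0.145 and 0.657 ± 0.189 in W/W on chow, vehicle and T0901317 (n = 4 each, SD). In W/F it was 0.745 ± 0.0854, 0.255 ± 0.0266 and 0.618 ± 0.0766, and in F/F 0.528 ± 0.0892, 0.214 ± 0.0494 and 0.324 ± 0.0292. This ratio does not depend on the scaling of a library, and it was lowest in the vehicle mice of both mutant genotypes.

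C8g, the gamma chain of C8 and a lipocalin, varied little between mice. It was 392, 431, 449 and 424 TPM in W/W vehicle mice, 229.8, 185, 177 and 227 TPM in W/F vehicle mice and 169, 169.6, 159 and 160.1 TPM in F/F vehicle mice. The 3 groups did not overlap. T0901317 gave -0.35 ± 0.10 (SE, adjusted p = 0.0223) in W/W, 0.83 ± 0.10 (SE, adjusted p = 4.56e-08) in W/F livers and 0.65 ± 0.10 (SE, adjusted p = 3.17e-05) in F/F, all 3 called under both scalings and of opposite sign in W/W. The diet effect was 0.01 ± 0.10 (SE, adjusted p = 0.993) in W/W, -1.03 ± 0.10 (SE, adjusted p = 5.56e-10) in W/F livers and -1.07 ± 0.10 (SE, adjusted p = 8.90e-10) in F/F.

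C9, which forms the ring of the pore, had 469, 423, 399 and 521 TPM in W/W vehicle mice and 181, 171, 234 and 181 TPM with T0901317, with no overlap (-1.24 ± 0.22 (SE, adjusted p = 0.000235)). In F/F vehicle mice it was 197, 295, 222 and 147 TPM, below all W/W vehicle mice (-1.11 ± 0.22 (SE, adjusted p = 4.94e-05)). The response to T0901317 differed from W/W by 1.02 ± 0.32 (SE, adjusted p = 0.00651) in W/F livers and 1.76 ± 0.32 (SE, adjusted p = 0.000170) in F/F. C6, a linking component of the complex, fell on T0901317 in W/W from 147 ± 19.8 to 84.4 ± 19.03 TPM (n = 4 each, SD; -0.82 ± 0.26 (SE, adjusted p = 0.0398)). In F/F its response differed from W/W by 1.12 ± 0.37 (SE, adjusted p = 0.0224), and the call was lost without F/F vehicle replicate 4 or W/W T0901317 replicate 2 (1.00 and 0.95). Hc, the mouse C5 gene and source of C5a, was the terminal gene that T0901317 did not lower in W/W by the test (-0.40 ± 0.20 (SE, adjusted p = 0.219)). Hc fell on the diet by 1.21 in W/W, 0.72 in W/F livers and 1.17 in F/F on the log2 scale, all called under both scalings, and neither response difference for T0901317 was called (-0.28, adjusted p = 0.398, and 0.41, adjusted p = 0.266).

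**Figure D3:**
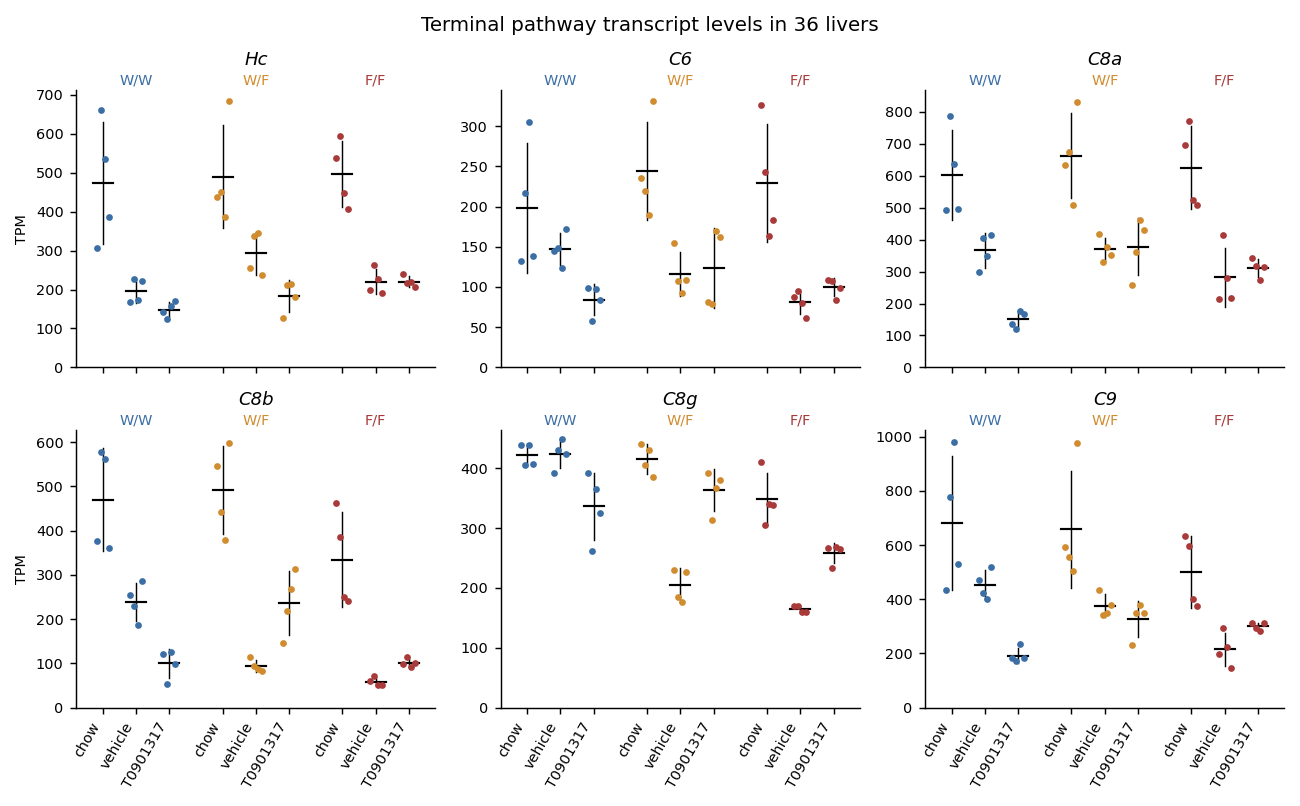
Terminal pathway genes in TPM (y) in the 9 groups (x), with 1 point per mouse, a bar at the mean and a line of 1 SD to each side (n = 4). W/W mice on T0901317 lie below all other W/W mice for C6, C8a, C8b and C9, and every W/F and F/F mouse on T0901317 lies above the vehicle mice of its genotype for C8b.

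In the lectin pathway, Mbl2 fell on the MASH diet in F/F livers and not by the test in W/W or W/F. Mbl2 encodes mannose-binding lectin C, which recognises sugars on microbes and damaged cells. Its level in F/F mice was 455, 759, 791 and 611 TPM on chow, 104, 55.8, 94.3 and 55.1 TPM on vehicle and 164, 141, 231 and 235 TPM with T0901317. The 3 F/F groups did not overlap. On vehicle it was 390.2, 554, 551 and 418 TPM in W/W mice and 338, 493, 457 and 561 TPM in W/F mice, all above every F/F mouse on the MASH diet. The diet effect was -3.09 ± 0.23 (SE, adjusted p = 1.23e-11) in F/F, -0.45 ± 0.23 (SE, adjusted p = 0.225) in W/W and -0.17 ± 0.23 (SE, adjusted p = 0.535) in W/F, the last called lower after rescaling (-0.68). The diet response of F/F differed from that of W/W by -2.64 ± 0.33 (SE, adjusted p = 6.86e-07), and vehicle F/F and W/F mice differed by -2.60 ± 0.23 (SE, adjusted p = 3.93e-09). T0901317 raised Mbl2 in F/F by 1.33 ± 0.23 (SE, adjusted p = 0.000124), and this response differed from W/W by 1.26 ± 0.33 (SE, adjusted p = 0.00530). Mbl1, encoding mannose-binding lectin A, changed less, from 475 ± 104 to 266 ± 39.5 TPM on the diet in F/F (-0.82 ± 0.11 (SE, adjusted p = 4.91e-07)). Mbl2 relative to Mbl1 was 1.42 ± 0.447, 0.301 ± 0.124 and 0.595 ± 0.158 in F/F on chow, vehicle and T0901317, and 1.36 ± 0.128 in W/W vehicle mice (n = 4 each, SD).

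Among the MASP proteases that act with these lectins, Masp2 fell on the diet in W/F and F/F (-0.53 ± 0.09 (SE, adjusted p = 7.70e-06) and -0.76 ± 0.09 (SE, adjusted p = 3.86e-08)) and rose on T0901317 in both (0.26 ± 0.09 (SE, adjusted p = 0.0108) and 0.29 ± 0.09 (SE, adjusted p = 0.0124)), under both scalings. In W/W neither was called (-0.24, adjusted p = 0.0750, and 0.04, adjusted p = 0.880). Masp1 differed widely between mice of one group, from 15.3 to 48.96 TPM in W/W vehicle mice and 34.1 to 77.1 TPM in W/F vehicle mice. Its fall on the diet in W/W (-1.20 ± 0.30 (SE, adjusted p = 0.00791)) was lost without W/W vehicle replicate 1 (-0.86, adjusted p = 0.0689). In F/F mice Masp1 was 73.6 to 90.2 TPM on chow and 22.8 to 44.0 TPM on vehicle, without overlap. On chow W/F mice had 77.98 to 84.3 TPM. The W/F vehicle mice at 77.0 and 77.1 TPM came close to that range, and the others had 34.1 and 35.7 TPM.

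The classical pathway proteases did not show a direction that held under both scalings on vehicle. C1ra and C1s1, the proteases that C1q activates, were 178 ± 20.5 and 344 ± 50.5 TPM in W/W vehicle mice and 248 ± 18.5 and 478 ± 45.9 TPM in F/F vehicle mice (n = 4 each, SD). F/F against W/W on vehicle gave 0.48 ± 0.12 (SE, adjusted p = 0.000423) and 0.48 ± 0.10 (SE, adjusted p = 0.000121) as deposited, and -0.38 and -0.38 after rescaling, called lower. C2, which supplies the protease of the C3 convertase, rose on the diet in F/F under both scalings (0.72 ± 0.14 (SE, adjusted p = 7.08e-05); rescaled 0.37), and its diet response there differed from W/W by 1.16 ± 0.20 (SE, adjusted p = 4.19e-05). Of their 50-base stretches, C1ra shares 50.8%, C1s1 21.8% and C2 38.7% with other annotated genes, so their levels are less certain than those of genes with none.

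C3 and Cfb, the 2 proteins of the alternative pathway convertase, were higher in vehicle W/F livers than in vehicle W/W livers. C3, the central component, was 1510.1, 2579, 2017 and 2223 TPM in W/W vehicle mice, 5525, 7184, 9139 and 6702 TPM in W/F vehicle mice and 5186, 7805, 6987 and 6205 TPM in F/F vehicle mice. All W/W mice lay below all mice of the other 2 groups. The difference from W/W was 1.78 ± 0.25 (SE, adjusted p = 2.65e-07) in W/F livers and 1.66 ± 0.25 (SE, adjusted p = 4.80e-07) in F/F, and after rescaling 1.12 and 0.79, both still called. T0901317 lowered C3 in W/F, to 1557, 4117, 2672 and 2516 TPM (-1.45 ± 0.25 (SE, adjusted p = 7.61e-06)). In F/F with T0901317 it was 5459.8, 3929, 4165 and 4139 TPM, where 1 mouse overlapped with vehicle (-0.56 ± 0.25 (SE, adjusted p = 0.0741)). Relative to Alb, the albumin transcript, C3 was 0.0420 ± 0.00660, 0.173 ± 0.0285 and 0.338 ± 0.0543 in W/W, W/F and F/F vehicle mice (n = 4 each, SD). Alb itself was lower in F/F than in W/W vehicle mice (19352 ± 1635 against 49754 ± 8757 TPM, n = 4 each, SD; -1.35 ± 0.19 (SE, adjusted p = 2.23e-07)), so the ratio in F/F rests on both transcripts.

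Cfb, whose product factor D cleaves, was 100.3, 128, 105 and 132 TPM in W/W vehicle mice and 252, 296, 355 and 315 TPM in W/F vehicle mice, without overlap (1.38 ± 0.19 (SE, adjusted p = 2.45e-07)). In F/F vehicle mice it was 174, 285, 253 and 221 TPM, higher as deposited (0.98 ± 0.19 (SE, adjusted p = 2.97e-05)) but not after rescaling (0.12, adjusted p = 0.581). T0901317 lowered it in W/F (-1.06 ± 0.19 (SE, adjusted p = 1.56e-05)). Cfb and C2 lie 85 bases apart on chr17, and 73% of the 50-base stretches of Cfb also belong to Gm20547, an annotated gene that spans both. Cfb and Cfd thus differed in opposite directions between W/F and W/W on vehicle.

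Of the soluble regulators, Clu rose and Cfhr2 fell on the diet in W/F and F/F livers. Clusterin (Clu) binds the forming membrane attack complex and is a secreted chaperone. Its level was 1006, 972, 1169 and 1014 TPM in W/W vehicle mice, 3194, 2826, 3282 and 3360.4 TPM in W/F vehicle mice and 4016, 4104, 4132 and 3615 TPM in F/F vehicle mice. The 3 groups did not overlap. The diet effect was 1.67 ± 0.14 (SE, adjusted p = 1.02e-11) in W/F livers and 1.27 ± 0.14 (SE, adjusted p = 6.60e-09) in F/F, against 0.16 ± 0.14 (SE, adjusted p = 0.526) in W/W, and the difference in diet response from W/W was 1.51 ± 0.19 (SE, adjusted p = 1.95e-07) and 1.11 ± 0.19 (SE, adjusted p = 4.49e-05). T0901317 lowered Clu in W/F (-1.29 ± 0.14 (SE, adjusted p = 2.91e-09)) and, as deposited, in F/F (-0.61 ± 0.14 (SE, adjusted p = 0.00128)), the second not called after rescaling (-0.34, adjusted p = 0.0779). On chow F/F mice, at 1469.8, 1703, 1647 and 1785 TPM, lay above all W/W mice at 820.4, 962, 1099.6 and 867 TPM (0.82 ± 0.14 (SE, adjusted p = 1.79e-05)).

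Cfhr2 was 608 ± 38.1 TPM in W/W vehicle mice, 446 ± 7.69 TPM in W/F livers and 326 ± 37.9 TPM in F/F (n = 4 each, SD). It fell on the diet in W/F and F/F (-0.80 ± 0.12 (SE, adjusted p = 8.37e-07) and -0.86 ± 0.12 (SE, adjusted p = 3.93e-07)) and on T0901317 in W/W (-0.50 ± 0.12 (SE, adjusted p = 0.00399)), under both scalings. In this it moved as the terminal genes did, and 29.2% of its 50-base stretches are shared with other annotated genes. C4bp, which inhibits the classical convertase, and Serping1, the C1 inhibitor, also fell on T0901317 in W/W (-0.38 ± 0.11 (SE, adjusted p = 0.0226) and -0.49 ± 0.15 (SE, adjusted p = 0.0276)). Cfi, the protease that inactivates C3b, was not called there (-0.18 ± 0.11 (SE, adjusted p = 0.352)). Of the membrane regulators, Cd59a, which blocks C9, lay between 82.7 and 109 TPM in the group means and Cd55, which speeds decay of the convertases, between 2.77 and 5.05 TPM. Over all 19 comparisons, 1 call of either gene held in one direction under both scalings, that of Cd59a for the T0901317 response of W/F against W/W (0.34 ± 0.14 (SE, adjusted p = 0.0398); rescaled 1.01).

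**Figure D4:**
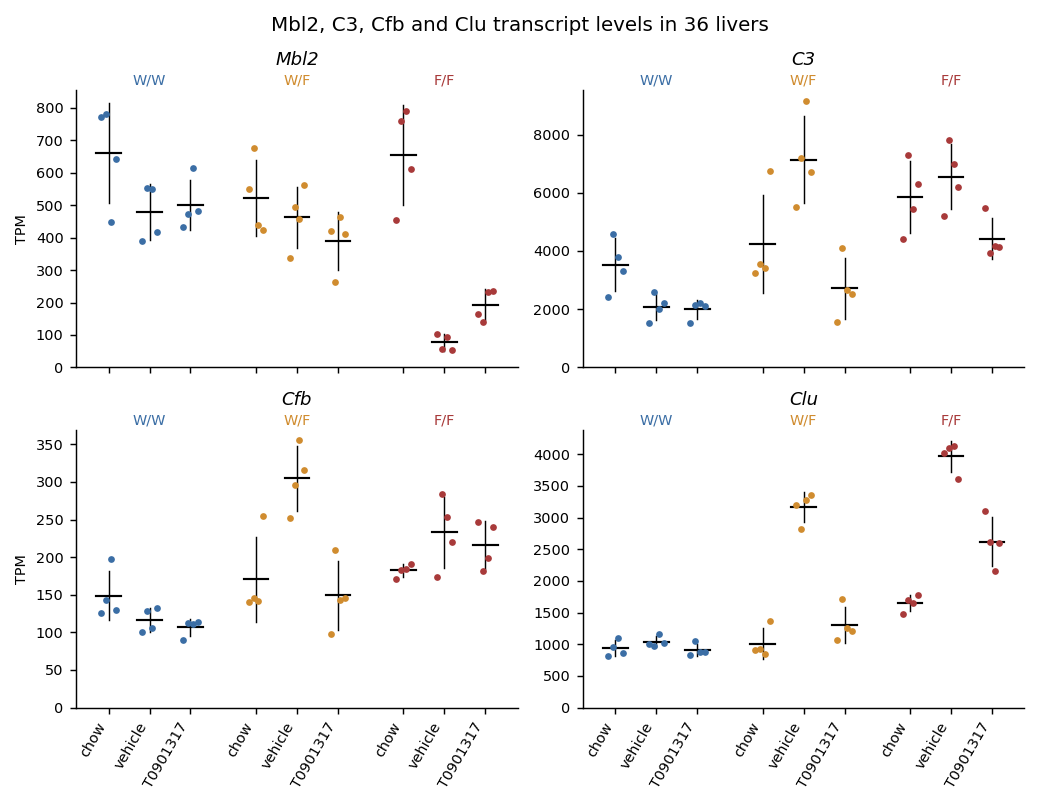
Mbl2, C3, Cfb and Clu in TPM (y) in the 9 groups (x), with 1 point per mouse, a bar at the mean and a line of 1 SD to each side (n = 4). Mbl2 is lowest in F/F mice on the MASH diet, at 55.1 to 235 TPM, with replicate 2 of W/F on T0901317 not far above, at 262 TPM. C3, Cfb and Clu are higher in W/F vehicle than in any W/W mouse on the MASH diet.

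The macrophage-made genes rose on the MASH diet in W/F and F/F and fell on T0901317 in W/F. All 6 were called higher on the diet in W/F and in F/F under both scalings (median log2 difference 3.55 and 2.07, beside 0.39 and 0.32 for all genes). Of all genes, 52.4% and 46.5% were called higher there as deposited, and 27.9% and 25.7% after rescaling. In W/W 0 were higher and 0 lower by limma (1 and 0 at an unadjusted p under 0.05; median 0.48), and after rescaling C3ar1 was called. The shares of all genes were 2.59% and 10.3%, and rescaled 6.98% and 8.44%. T0901317 lowered all 6 in W/F (median -2.48, beside -0.49 for all genes) and C3ar1 and C5ar1 in F/F. Of all genes, 59.3% and 31.2% were called lower there, and rescaled 27.1% and 7.98%. In W/W T0901317 changed 0 by limma, with 0 at an unadjusted p under 0.05 in either direction, where 7.87% of all genes were higher and 2.91% lower.

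C1qa, C1qb and C1qc, the 3 chains of C1q, lie in a cluster on chr4 within which C1qa and C1qc are 2851 and C1qb and C1qc 3616 bases apart. C1qa was 61.999, 65.2, 76.6 and 84.8 TPM in W/W vehicle mice, 513, 391, 459.5 and 446 TPM in W/F vehicle mice and 528, 535, 414 and 478 TPM in F/F vehicle mice. The mutant groups lay wholly above W/W and overlapped with each other. The diet effect was 3.41 ± 0.30 (SE, adjusted p = 3.83e-11) in W/F livers and 1.94 ± 0.30 (SE, adjusted p = 2.15e-06) in F/F. With T0901317 the W/F mice had 70.1, 277, 75.8 and 59.1 TPM (-2.21 ± 0.30 (SE, adjusted p = 1.97e-07)), 3 of them within the range of W/W mice on T0901317 and replicate 2 above it. The F/F mice had 428, 403, 263 and 319 TPM, overlapping with vehicle (-0.49 ± 0.30 (SE, adjusted p = 0.196)). On chow the F/F mice had 124, 91.2, 155 and 142 TPM, above all W/W chow mice at 41.3, 50.4, 46.3 and 63.7 TPM (1.32 ± 0.30 (SE, adjusted p = 0.000658)). C1qa relative to C1qc was 2.06 ± 0.0804 in W/W, 1.97 ± 0.176 in W/F livers and 2.06 ± 0.0687 in F/F vehicle mice (n = 4 each, SD), and over all 9 groups its mean ran from 1.73 (W/W on T0901317) to 2.28 (W/W on chow). C1qb relative to C1qa on vehicle was 0.736 ± 0.0663 in W/W, 1.06 ± 0.143 in W/F livers and 1.06 ± 0.0330 in F/F (n = 4 each, SD), and the W/W mice lay below all mice of the other 2 groups. With T0901317 this ratio was 1.04 ± 0.104 in W/W and 0.754 ± 0.101 in W/F (n = 4 each, SD). T0901317 in W/F gave -2.69 ± 0.34 (SE, adjusted p = 9.74e-08) for C1qb and -2.27 ± 0.33 (SE, adjusted p = 6.83e-07) for C1qc. Without replicate 2 of W/F T0901317 the same comparison gave -2.71 for C1qa, -3.28 for C1qb, -2.84 for C1qc, -1.73 for Cfp, -3.73 for C3ar1 and -3.61 for C5ar1, each called, so that the calls do not rest on it.

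C3ar1, the receptor of C3a, was low in W/W livers, at 1.32, 1.11, 1.33 and 0.981 TPM on vehicle. In vehicle mice it was 22.8, 33.1, 36.8 and 23.7 TPM in W/F livers and 34.6, 49.6, 36.002 and 44.1 TPM in F/F. The diet effect was 4.06 ± 0.25 (SE, adjusted p = 7.54e-14) in W/F livers and 2.67 ± 0.25 (SE, adjusted p = 8.95e-10) in F/F. T0901317 brought it to 1.38, 4.39, 1.18 and 1.10 TPM in W/F (-3.41 ± 0.25 (SE, adjusted p = 9.51e-12)) and to 14.7, 12.8, 9.76 and 13.7 TPM in F/F (-1.61 ± 0.25 (SE, adjusted p = 3.32e-05)). Neither T0901317 group overlapped with its vehicle group, and the F/F group remained above all W/W mice (2.54 ± 0.25 (SE, adjusted p = 1.87e-09)).

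C5ar1, the receptor of C5a, followed C3ar1. It was 0.442, 0.788, 0.549 and 0.535 TPM in W/W, 17.8, 13.9, 18.3 and 15.7 TPM in W/F livers and 30.04, 33.6, 24.5 and 29.8 TPM in F/F vehicle mice. The 3 groups did not overlap, and C5ar1 alone of these 6 genes was called higher in F/F than W/F on vehicle (0.80 ± 0.24 (SE, adjusted p = 0.0169)), a call lost after rescaling (0.60, adjusted p = 0.104). T0901317 gave -3.31 ± 0.24 (SE, adjusted p = 6.45e-12) in W/F livers and -1.94 ± 0.24 (SE, adjusted p = 1.01e-06) in F/F. W/W chow values of C5ar1 rest on 2 to 15 recovered reads per library and those of F/F vehicle mice on 550 to 746.

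Cfp, encoding properdin, which stabilises the alternative convertase, differed from the others in F/F. It was 20.8, 18.5, 20.2 and 21.2 TPM in W/W, 53.7, 57.8, 63.96 and 55.4 TPM in W/F livers and 29.4, 30.8, 22.3 and 31.3 TPM in F/F vehicle mice. The F/F mice lay below all W/F mice (-1.004 ± 0.27 (SE, adjusted p = 0.00747)), while for C1qa the same groups overlapped (0.11 ± 0.30 (SE, adjusted p = 0.828)). On chow F/F mice, at 8.29, 8.03, 9.98 and 7.93 TPM, lay below all W/W mice at 13.6, 18.5, 14.3 and 15.99 TPM (-0.79 ± 0.27 (SE, adjusted p = 0.0154)), the opposite of the other 5. Both calls held after rescaling (-1.19 and -1.15).

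On vehicle, macrophage markers were higher in W/F and F/F than in W/W, as these 6 genes were, but Cfp parted from the markers in F/F. The summed level of 5 macrophage markers (Adgre1, Cd68, Csf1r, Mertk, Cd14) was 38.2 to 58.2 TPM in W/W, 482 to 759 TPM in W/F livers and 634 to 777 TPM in F/F vehicle mice. With T0901317 it was 43.3 to 90.3, 35.8 to 204 and 211 to 386 TPM, and the 204 TPM were in replicate 2 of W/F, the mouse that stood apart in the 6 genes, against 35.8 to 52.2 TPM in the other 3. On chow the same sum was 32.2 to 47.9 TPM in W/W and 115 to 243 TPM in F/F, whereas Cfp was lower in F/F. While the sum fell on T0901317 in F/F, Cfp was 28.5 ± 4.15 TPM on vehicle and 30.9 ± 4.61 TPM with T0901317 (n = 4 each, SD). The 6 markers of monocyte-derived macrophages (Ccr2, Ly6c2, Itgax, Trem2, Gpnmb, Cx3cr1) summed to 2.26 to 10.1 TPM in W/W, 392 to 742 TPM in W/F livers and 584 to 755 TPM in F/F vehicle mice. Markers of resident Kupffer cells (Clec4f, Timd4, Vsig4, Marco, Cd5l) went the other way in F/F, with 177 to 218 TPM in W/W, 291 to 419 TPM in W/F livers and 2.89 to 4.92 TPM in F/F vehicle mice, and 145 to 241 TPM in F/F with T0901317. Relative to Csf1r, a receptor of all macrophages, C1qa was 4.62 ± 0.503 in W/W, 4.49 ± 1.15 in W/F livers and 5.38 ± 0.347 in F/F vehicle mice, whereas relative to Cd68, a lysosomal protein of macrophages, it was 7.14 ± 1.11, 2.22 ± 0.506 and 1.69 ± 0.0866 (n = 4 each, SD). The 6 neutrophil markers (S100a8, S100a9, Ly6g, Retnlg, Cxcr2, Mpo) summed to 3.05 to 7.02, 73.997 to 137 and 129 to 377 TPM in the same groups, and neutrophils also carry C5ar1. The part that cell numbers play in these differences was not tested.

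**Figure D5:**
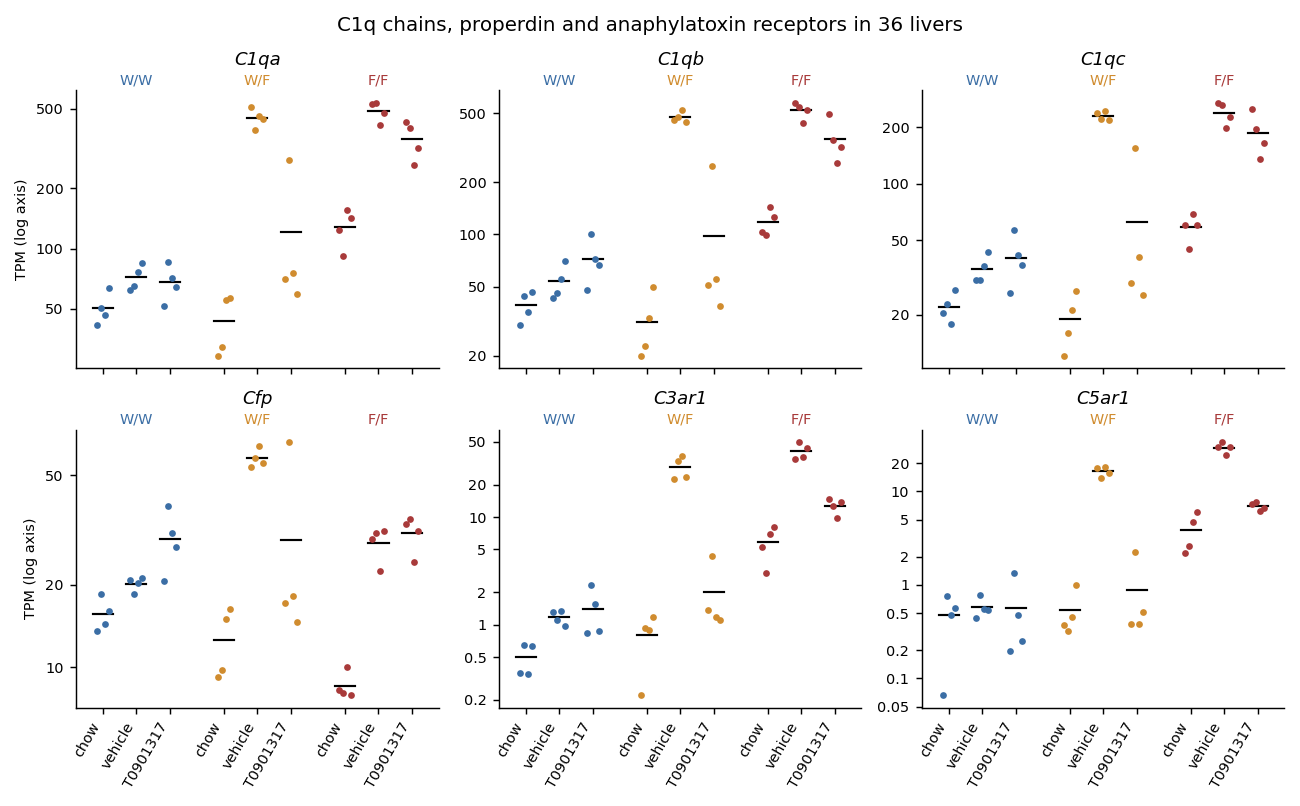
C1qa, C1qb, C1qc, Cfp, C3ar1 and C5ar1 in TPM on log axes (y) in the 9 groups (x), with 1 point per mouse and a bar at the mean. W/F and F/F vehicle mice lie above all W/W vehicle mice in every panel, and 1 mouse of W/F T0901317 (replicate 2, C1qa at 277 TPM) lies above the other 3 in all 6.

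A further 28 complement gene symbols were read alongside, of which 22 genes were tested. Counted as higher and lower, T0901317 called 2 and 4 of these in W/W, 6 and 9 in W/F and 5 and 3 in F/F, and the diet 0 and 3, 8 and 7, and 6 and 9. Rescaled, the T0901317 counts were 1 and 4, 11 and 5, and 7 and 3, and the diet counts 2 and 0, 7 and 12, and 6 and 12, so that the balance turned for T0901317 in W/F and for the diet in W/W and W/F. Over all genes, T0901317 in W/F called 6.59% higher and 59.3% lower as deposited, and 23.6% and 27.1% rescaled. The diet in W/F called 52.4% and 8.53%, and rescaled 27.9% and 27%. In W/W T0901317 called 7.87% and 2.91% (rescaled 8% and 5.52%) and the diet 2.59% and 10.3% (rescaled 6.98% and 8.44%). In F/F T0901317 called 3.95% and 31.2% (rescaled 8.32% and 7.98%) and the diet 46.5% and 9.27% (rescaled 25.7% and 21.3%). On vehicle 10 were higher and 7 lower in W/F than W/W (61.6% and 6.83% of all genes). In F/F 8 were higher and 9 lower than in W/W on vehicle (69.3% and 7.13%). Rescaled, the vehicle counts were 5 and 12 in W/F (27.6% and 25.5%) and 6 and 15 in F/F (31% and 28.1%). Vsig4, the C3b receptor of Kupffer cells and also 1 of the Kupffer markers, was 24.5, 24.01, 23.3 and 23.9 TPM in W/W vehicle mice and 1.53, 0.465, 1.61 and 0.906 TPM in F/F vehicle mice (-3.59 ± 0.31 (SE, adjusted p = 1.21e-11)), and T0901317 raised it in F/F to 18.6, 16.7, 15.4 and 28.8 TPM (3.29 ± 0.31 (SE, adjusted p = 4.94e-09)). Itgam and Itgb2, the chains of complement receptor 3, were higher in vehicle F/F than W/W mice (3.80 ± 0.20 (SE, adjusted p = 8.38e-16) and 4.37 ± 0.38 (SE, adjusted p = 1.36e-11)). Fcna, the lectin pathway protein ficolin A, was lower there (-2.34 ± 0.20 (SE, adjusted p = 1.22e-11)), as was Susd4, a membrane regulator (-1.98 ± 0.32 (SE, adjusted p = 2.12e-06)). These named examples were chosen after their values were seen.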

How the data were processed

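PolyA RNA of 36 mouse livers (9 groups of 4) was analysed from 1 table of TPM values deposited by the authors, each column of which sums to 1e+06. TPM is corrected for gene length and library total and not for composition. Per the submitters' processing notes, Trimmomatic 0.36, STAR 2.5.2b and featureCounts of Subread 1.5.2 were used with GRCm38 (mm10); their settings are not given in the sources used here. Read counts are not used here, so a log-scale test was chosen.

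Low TPM values are steps of 1 read, whose size depends on exon length (GENCODE M21) and depth. Fitting depth to these steps placed 93.7% to 95.6% of low values within 0.1 of a whole read and gave 18.04 to 35.7 M reads per library (M, 1000000). The test used log2(TPM + 1) of the 16638 genes that reached 1 TPM in 4 or more libraries. The limma package (version 3.58.1, R 4.3.3) fitted 1 mean per group over all 36 libraries, with a mean-variance trend and 27 residual degrees of freedom. Two-sided tests were made for 19 comparisons, with Benjamini-Hochberg adjustment over all tested genes of each comparison and a threshold of 0.05. The procedure was tested on simulated data.

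Alternatives were rescaling by median-of-ratios factors over 14786 genes, 0.1 as pseudocount, genes at 5 TPM or more in 4 libraries, all genes unfiltered, the replicate number as a block, separate fits of the compared groups, and leaving out each library. The naming rule took all 30 members, and for tests of single results under the alternatives those with an absolute log2 difference of at least 1. The 5 genes most like Cfd were taken by Pearson correlation. The members, the list of 28 other complement symbols, the 10 marker lists and the tests were chosen with earlier results of these data known. Promoter windows and gene starts are from RefSeq on GRCm38.p6, and shared sequence was measured over exons of GENCODE M21 in stretches of 50 bases.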

Additional observations from a re-analysis of the deposited data

Results flagged for a closer look

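Of 270 gene and group combinations, 21 had 1 mouse far from the other 3 of its group by Dixon's test, and chance gives about 1 in 20. In W/F mice on T0901317, replicate 2 was high in all 6 macrophage-made genes, at 277 TPM for C1qa, 248 for C1qb, 155 for C1qc, 66.0 for Cfp, 4.39 for C3ar1 and 2.25 for C5ar1. In W/F mice on chow, replicate 4 was high in C1ra (266 TPM), C4b (985), C3 (6758), Cfb (255) and Clu (1367), and it was the highest of its group in 16 of the 21 hepatocyte-made genes and all 6 macrophage-made ones. F/F vehicle replicate 2 was high in C1s1 (547 TPM) and Serping1 (904), and F/F vehicle replicate 3 in Cfd (6.80). That replicate 2 was the highest of its group in 19 of the 21 hepatocyte-made genes, and W/F T0901317 replicate 1 the lowest of its group in 17. F/F T0901317 replicate 1 was high in C4b (739.8 TPM) and C3 (5459.8), and replicate 2 low in C8g (234). W/W T0901317 replicate 1 was low in C3 (1519 TPM) and Cfb (89.9), W/W chow replicate 2 high in Cfi (979.9) and W/W chow replicate 3 low in Cd55 (3.10).

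A further 46 results are differences of a response between a mutant genotype and W/W, tested in limma as deposited and at least 1 on the log2 scale. For T0901317 in W/F they were 1.29 for C8a (adjusted p = 0.000247), 2.58 for C8b (adjusted p = 3.33e-07), 1.18 for C8g (adjusted p = 9.34e-08) and 1.02 for C9 (adjusted p = 0.00651) in the terminal pathway. Among the macrophage-made genes they were -2.11 for C1qa (adjusted p = 8.86e-05), -3.09 for C1qb (adjusted p = 4.65e-06), -2.43 for C1qc (adjusted p = 5.90e-05), -1.74 for Cfp (adjusted p = 0.000240), -3.51 for C3ar1 (adjusted p = 5.21e-09) and -3.25 for C5ar1 (adjusted p = 7.76e-09). For the remaining genes they were -1.41 for Masp1 (adjusted p = 0.00545), -1.41 for C3 (adjusted p = 0.00102), 7.62 for Cfd (adjusted p = 8.81e-09) and -1.10 for Clu (adjusted p = 1.81e-05). For T0901317 in F/F they were 1.12 for C6 (adjusted p = 0.0224), 1.48 for C8a (adjusted p = 0.000286), 2.12 for C8b (adjusted p = 4.65e-05) and 1.76 for C9 (adjusted p = 0.000170) in the terminal pathway, and -1.71 for C3ar1 (adjusted p = 0.000836), -1.88 for C5ar1 (adjusted p = 0.000188) and 1.26 for Mbl2 (adjusted p = 0.00530) elsewhere.

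For the diet in W/F they were 2.90 for C1qa (adjusted p = 1.58e-06), 3.53 for C1qb (adjusted p = 8.39e-07), 2.93 for C1qc (adjusted p = 6.08e-06), 1.79 for Cfp (adjusted p = 0.000218), 3.51 for C3ar1 (adjusted p = 8.34e-09) and 3.40 for C5ar1 (adjusted p = 6.38e-09) among the macrophage-made genes, and -1.40 for C8b (adjusted p = 0.000985), -1.03 for C8g (adjusted p = 9.39e-07), 1.55 for C3 (adjusted p = 0.000472), 1.21 for Cfb (adjusted p = 0.000419), -6.94 for Cfd (adjusted p = 5.14e-08) and 1.51 for Clu (adjusted p = 1.95e-07) elsewhere. For the diet in F/F they were 1.43 for C1qa (adjusted p = 0.00653), 1.70 for C1qb (adjusted p = 0.00570), 1.37 for C1qc (adjusted p = 0.0172), 1.26 for Cfp (adjusted p = 0.00755), 2.12 for C3ar1 (adjusted p = 3.56e-05) and 2.58 for C5ar1 (adjusted p = 1.35e-06) among the macrophage-made genes, and -1.10 for C6 (adjusted p = 0.0162), -1.52 for C8b (adjusted p = 0.000736), -1.08 for C8g (adjusted p = 1.58e-06), 1.16 for C2 (adjusted p = 4.19e-05), -2.64 for Mbl2 (adjusted p = 6.86e-07), -6.32 for Cfd (adjusted p = 8.64e-07) and 1.11 for Clu (adjusted p = 4.49e-05) elsewhere. Of the 46, 7 were not called after rescaling. The 2 responses compared in each difference share no mice, but differences for W/F and F/F share the W/W mice.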

How the results depend on the processing

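The 150 single results were limited to an absolute log2 difference of at least 1, so they say little about smaller differences. Some smaller calls did reverse on rescaling, as those of C1ra and C1s1 did between vehicle mice of the F/F and W/W genotypes. C1s1 was called in 7 of 19 comparisons as deposited and in 9 after rescaling, with 0 called the same way in both. Of the 150 larger results, 139 kept their direction and call under every alternative tried, and none reversed. Rescaling ended 8 calls: Masp1 for T0901317 in W/F (-0.48), the W/F difference in T0901317 response for Clu (-0.42), Masp1 (-0.76) and C3 (-0.73), the W/F difference in diet response for Cfb (0.58), and the F/F difference in diet response for Cfp (0.78), C1qc (0.89) and C1qa (0.95). A fit of only the groups compared ended 2, Masp1 for the diet in W/W (-1.20) and C8b for W/F against W/W on T0901317 (1.26), and single omitted mice ended 3. That fit tests fewer samples, and it lowered the number of members called from 8 to 4 for the diet in W/W and, with W/F against W/W on T0901317, from 6 to 3. The pseudocount of 0.1, both filters and the replicate block ended none of the 150. With a mouse left out in turn, the number of members called ranged from 4 to 9 (T0901317 in W/W), 18 to 23 (W/F) and 6 to 9 (F/F), from 3 to 11 (diet in W/W), 19 to 24 (W/F) and 20 to 22 (F/F), from 0 to 0, 20 to 23 and 4 to 10 (W/F against W/W on chow, vehicle and T0901317), from 10 to 14, 23 to 25 and 21 to 23 (F/F against W/W), and from 8 to 12, 7 to 11 and 13 to 21 (F/F against W/F). For the differences of response the ranges were 18 to 23 and 9 to 12 (T0901317, W/F and F/F) and 16 to 21 and 16 to 19 (diet). The lowest values for the diet in W/W came without W/W vehicle replicate 1 (3) and W/W chow replicate 2 (4). Without W/W chow replicate 2 the differences in diet response of Cfd were -6.33 in W/F and -5.70 in F/F, and without W/F T0901317 replicate 2 C1qb gave 2.82 for F/F against W/F on T0901317 and -3.68 for the W/F difference in T0901317 response. Replicate numbers did not pair the mice: deviations of same-numbered mice from their group means correlated at 0.0165 on average (-0.174 to 0.297, 144 pairs) and those of other pairs at -0.00536 (432 pairs). The cause of each change was not tested unless given.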
